A study of Rattus norvegicus with 8 samples.

Results

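The lysosome genes described here are 42 genes of rat that encode membrane and regulatory proteins of the lysosome (10 genes), cathepsins (10), other acid hydrolases (13) and subunits of the proton pump that acidifies it (9). They were taken by the gene name given with each probe in the deposited array files, out of 26214 genes named there. Their RNA was measured in N27 cells, a line of rat embryonic mesencephalic cells immortalized by transformation and used as a dopamine-producing cell in work on neurotoxins, on 8 single-colour Agilent arrays. The 4 groups of 2 arrays were untreated control cells, cells given manganese (Mn) at 150 µM for 48 h, cells given MPP+ at 250 µM for 48 h, and cells labelled 3-NPA, for which the labels used here give neither dose nor time. All groups are of 1 immortalized line, and whether the 2 arrays of a group came from different cultures is not stated. The p-values therefore cover the variation from array to array alone, which may be technical.

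The lysosome breaks down proteins, lipids, glycans and glycogen delivered by endocytosis and autophagy. Its hydrolases work at acid pH, which a vacuolar ATPase maintains by pumping protons through the limiting membrane, and glycosylated membrane proteins line that membrane. Many of these genes are under shared transcriptional control by TFEB and its relatives TFE3 and MITF, which bind E-box motifs and release lysosomal genes from low expression when nutrient signalling through mTORC1 falls. Neurons depend on this compartment, and inherited loss of several of the enzymes below causes storage diseases that affect the brain. MPP+ is an inhibitor of mitochondrial complex I, and manganese in excess is toxic to the basal ganglia.

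A scaled signal below is the intensity of the brightest probe of a gene after the 75th percentile of every array was set to the common value of 1142 intensity units. A gene was tested if some group had its probe well above background on each of its 2 arrays, which held for 39 of the 42 genes and for 16908 genes in all. It was called if its adjusted p in limma, fitted over all 8 arrays with adjustment over all genes tested, was below 0.05. Each array had from 32711 to 41354 spots well above background of 58717, and the control arrays had the fewest (32711 and 34060). Replicate arrays correlated at 0.9904 to 0.9969 over all genes, and arrays of different groups at 0.9733 to 0.9885. All 8 arrays shared a single slide and scan, and each group occupied neighbouring positions of its own on the slide. Position and group cannot be told apart, and neither can 3-NPA and the later of 2 runs of the software that read the image, since only the 3-NPA arrays came from that run. Among 10 dopaminergic markers, Th, Slc18a2 and Nr4a2 were above background on 8 of 8 arrays, while Slc6a3, the dopamine transporter, and Foxa2 were above it on 0. Ddc and Lmx1b were above it on 6, Aldh1a1 on 5 and Pitx3 on 4, and En1 had no probe by that name. The mean signal of Aldh1a1 was 79.9 in control, 6.54 with Mn, 13.9 with MPP+ and 82.9 with 3-NPA. Ddc and Pitx3, dim in control, had means of 32.9 and 17.2 there and 132 and 61.1 with 3-NPA.

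Set against control, few lysosome genes were called with Mn, more with MPP+ and most with 3-NPA, nearly all of them higher. With Mn, 6 of the 39 tested genes were called higher and 0 lower by limma (15.4%), where 7.66% of all genes were called (4.5% higher, 3.16% lower), and 14 had an unadjusted p below 0.05. With MPP+, 9 were called higher and 1 lower (25.6%), where 13.9% of all genes were called (7.47% higher, 6.47% lower). With 3-NPA, 24 were called higher and 2 lower (66.7%), where 38.3% of all genes were called, 22.3% higher and 16% lower. The median log2 fold change of the 39 genes was 0.13 with Mn, 0.29 with MPP+ and 0.48 with 3-NPA, against -0.02, 0.02 and 0.05 over all genes tested, and these medians were the same with genes not above background in 1 group set at their bound. In 3-NPA, 35 of the 39 fold changes were above 0. Where arrays are said below not to overlap with control, this held for 50.5% of all genes with Mn, 63.5% with MPP+ and 71.9% with 3-NPA, so it is a common state on these arrays. The 3 comparisons share the control arrays, so their values stand side by side and are not independent of each other. In whole-culture RNA, a change per cell and a change in which cells survived cannot be told apart.

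These counts depended on the arrays and the scaling. The 3-NPA count of 26 was 12 without 3-NPA replicate 1 and 13 without 3-NPA replicate 2, and 16 (14 higher) where the median of each array replaced its 75th percentile. That scaling moved the median of all genes from 0.05 to -0.09 with 3-NPA and from 0.02 to 0.13 with MPP+, and the members' medians to 0.34 and 0.40. The Mn count of 6 was 3 without control replicate 1, Mn replicate 2 or any 1 of the MPP+ and 3-NPA arrays, and 4 without control replicate 2 or Mn replicate 1. The MPP+ count of 10 was 2 without either MPP+ array, 4 without control replicate 1 and 5 without either 3-NPA array.

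**Figure D1:**
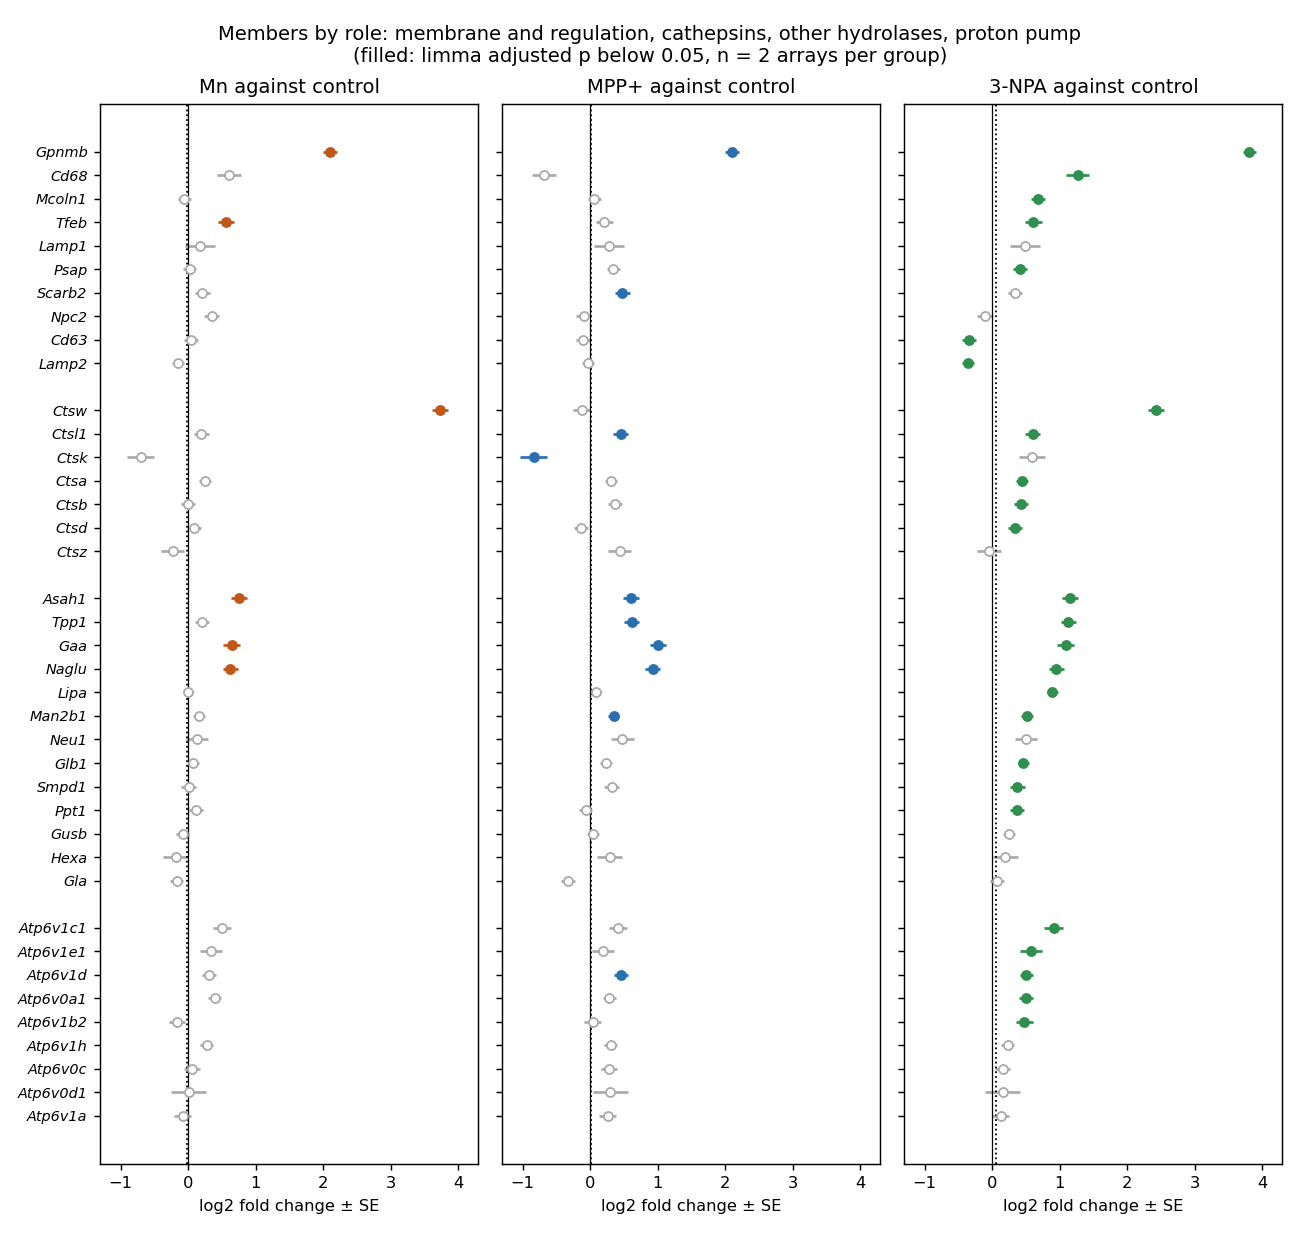
Each point is the log2 fold change of 1 lysosome gene against control with its standard error, for Mn, MPP+ and 3-NPA, in blocks by role and ordered within a block by the 3-NPA value. Filled points passed the limma test (6, 10 and 26 genes), open points did not, the dotted line is the median of all genes tested, and the points of Ctsw are fitted values on a probe dim in control.

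Of the 10 membrane and regulatory genes, all of them tested, 2 were called higher with Mn, 2 with MPP+ and 5 with 3-NPA, where 2 others were called lower. Called shares were 20%, 20% and 70%, against 7.66%, 13.9% and 38.3% of all genes. Gpnmb, a transmembrane glycoprotein of melanosomes, lysosomes and macrophages, carried the largest rise of all members with MPP+ and 3-NPA. The sequence of its array probe and the RefSeq promoter window (build GRCr8, 250 bases before to 50 after the annotated start) are shown because no other member moved as far in all 3 groups. The probe lies on chromosome 4 in build rn4, and capitals in the promoter mark the letters CATGTG on either strand, the core of the M-box that MITF is known to bind, here at -22 from the start.
Gpnmb probe (rn4 chr4:77182198-77182257, + strand): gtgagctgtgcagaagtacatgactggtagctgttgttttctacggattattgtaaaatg
Gpnmb promoter (GRCr8 chr4:79340878-79341177, + strand): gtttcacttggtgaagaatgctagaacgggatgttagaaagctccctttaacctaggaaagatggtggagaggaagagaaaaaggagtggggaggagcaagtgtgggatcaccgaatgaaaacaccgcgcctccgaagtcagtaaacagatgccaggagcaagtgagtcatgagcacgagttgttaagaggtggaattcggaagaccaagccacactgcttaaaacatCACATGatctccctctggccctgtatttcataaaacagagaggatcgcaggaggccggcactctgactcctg

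The scaled signal of Gpnmb was 514 and 510.5 on the control arrays, 2341 and 2066 with Mn, 2267 and 2124 with MPP+, and 7369.6 and 6982 with 3-NPA. The groups fell on 3 levels that did not overlap, with Mn and MPP+ together between control and 3-NPA. Its log2 fold change was 2.10 ± 0.10 (SE, n = 2 against 2) with Mn (limma adjusted p = 0.0014), 2.10 ± 0.10 with MPP+ (0.000594) and 3.81 ± 0.10 with 3-NPA (6.37e-05). Ranked among all genes tested by size of rise, Gpnmb stood 51st with Mn and 28th with MPP+. The call with Mn was lost where only the 4 arrays of that comparison were fitted, a setting that called 6 genes of the whole table, and held in 18 of 19 alternatives.

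Cd68, a mucin-like glycoprotein of late endosomes and lysosomes that is abundant in macrophages, parted the 3 toxins. Its signal was 118 and 88.2 in control, 173 and 140.2 with Mn, 67.5 and 60.4 with MPP+, and 253 and 238 with 3-NPA. The 3-NPA arrays were the highest and the MPP+ arrays the lowest, with no overlap between any of the groups. The rise with 3-NPA was 1.27 ± 0.18 on the log2 scale (limma adjusted p = 0.00324), while the values of 0.61 ± 0.18 with Mn (0.0975) and -0.68 ± 0.18 with MPP+ (0.0554) did not pass. Mcoln1, the calcium channel TRPML1 of the lysosomal membrane, had signals of 6041 and 5357 in control, 5668 and 5275 with Mn, 5970.2 and 5887 with MPP+, and 8898 and 9300.4 with 3-NPA. Only the 3-NPA arrays stood apart, by 0.68 ± 0.10 (adjusted p = 0.00374), with values of -0.06 with Mn and 0.06 with MPP+. The promoters of both genes are shown because each moved with 3-NPA in every alternative tried and they hold different motifs: Cd68 has CATGTG (capitals) at -185, and Mcoln1 has the E-box CACGTG (capitals) at -22 and 4.
Cd68 promoter (GRCr8 chr10:54882392-54882691, - strand): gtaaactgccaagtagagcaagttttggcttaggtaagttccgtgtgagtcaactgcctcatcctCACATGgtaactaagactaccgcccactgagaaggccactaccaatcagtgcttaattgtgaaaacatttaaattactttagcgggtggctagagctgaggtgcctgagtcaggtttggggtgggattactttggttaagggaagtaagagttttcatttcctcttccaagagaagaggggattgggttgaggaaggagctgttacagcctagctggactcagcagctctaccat
Mcoln1 promoter (GRCr8 chr12:6358008-6358307, + strand): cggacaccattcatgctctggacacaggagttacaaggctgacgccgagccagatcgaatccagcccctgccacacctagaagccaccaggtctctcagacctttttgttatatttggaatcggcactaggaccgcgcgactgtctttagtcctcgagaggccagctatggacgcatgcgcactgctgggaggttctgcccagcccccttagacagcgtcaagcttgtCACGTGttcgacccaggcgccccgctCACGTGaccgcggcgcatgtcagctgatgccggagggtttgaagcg

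Tfeb, the transcription factor that activates lysosomal genes, had signals of 282 and 227 in control, 366 and 381 with Mn, 295 and 291 with MPP+, and 397 and 377 with 3-NPA. The Mn and 3-NPA arrays shared a range above both control arrays, and the MPP+ arrays lay just above the higher control array. Tfeb rose by 0.56 ± 0.12 with Mn (limma adjusted p = 0.0477) and by 0.61 ± 0.12 with 3-NPA (0.0111), and its value with MPP+ was 0.21 ± 0.12 (0.289). The call with Mn sat close to the threshold and held in 7 of 19 alternatives, and that with 3-NPA in 17 of 18.

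Lamp1, Lamp2 and Cd63, the usual markers of the compartment, were not called higher with any toxin. Lamp1, a heavily glycosylated protein of the limiting membrane, had signals of 3677 and 2527 in control, 2974 and 3984 with Mn, 3425 and 4012 with MPP+, and 4179.9 and 4367 with 3-NPA. The 2 control arrays and the 2 Mn arrays lay far apart, and a log2 value of 0.49 ± 0.22 with 3-NPA did not pass (adjusted p = 0.135). Lamp2, the receptor of chaperone-mediated autophagy, had signals of 933 and 924 in control, 868 and 806 with Mn, 881 and 929.98 with MPP+, and 708 and 749 with 3-NPA. The 3-NPA arrays were the lowest, and Lamp2 fell by 0.35 with an SE of 0.09 (adjusted p = 0.0254). Cd63, a tetraspanin of late endosomes and exosomes, had signals of 27254 and 23872 in control, 25116 and 27507 with Mn, 23555 and 23791 with MPP+, and 20549 and 19820 with 3-NPA. Its 3-NPA arrays were also the lowest of the 8, and Cd63 fell by 0.34 with an SE of 0.10 (adjusted p = 0.0454). The calls of Lamp2 and Cd63 held in 11 and 9 of 18 alternatives, each with the same sign in all 18, and both were lost without either 3-NPA array.

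Psap encodes prosaposin, the precursor of the saposins that help hydrolases reach sphingolipids. Its signals were 1671 and 1842 in control, 1692 and 1871 with Mn, 2188 and 2265 with MPP+, and 2323 and 2348 with 3-NPA. Control and Mn overlapped, and the MPP+ and 3-NPA arrays lay above both. The rise with 3-NPA was 0.41 ± 0.10 (limma adjusted p = 0.0202), while 0.34 ± 0.10 with MPP+ did not pass (0.0702). Scarb2, an integral protein of the lysosomal membrane, rose with MPP+ by 0.48 ± 0.11 (0.0393) and had a value of 0.34 ± 0.11 with 3-NPA (0.0524). Npc2, which carries cholesterol out of the lysosome, was called in none of the 3 comparisons with control.

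**Figure D2:**
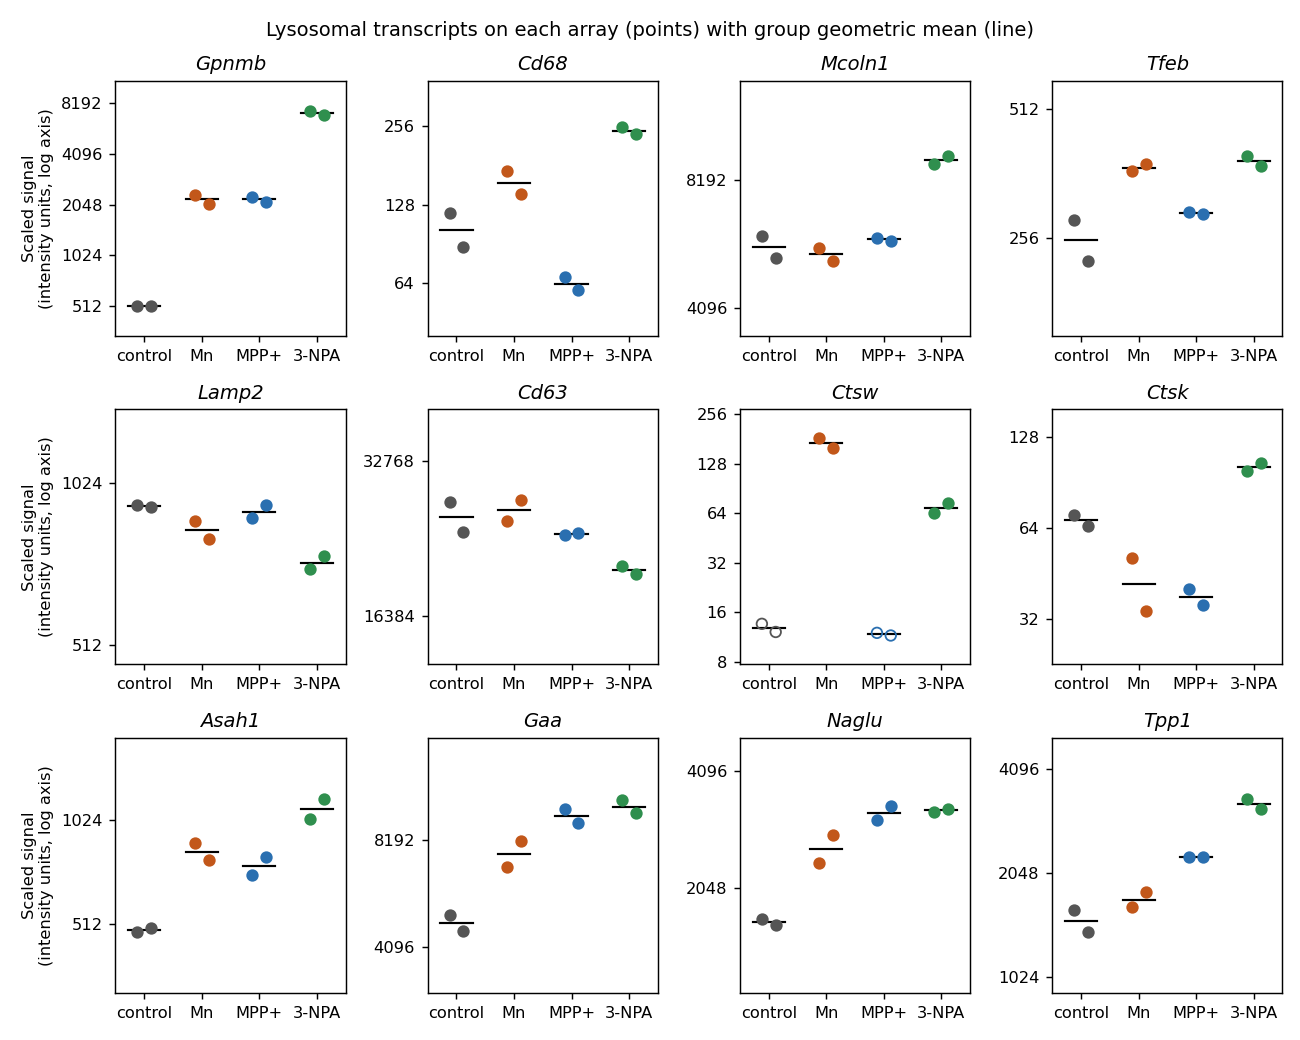
Scaled signal of 12 lysosome genes on each of the 8 arrays (points) with the geometric mean of each group (line), on a log axis of intensity units, with open points where neither array of a group was well above background. Gpnmb stood at about 3 levels, Ctsw was bright only with Mn and 3-NPA, and Lamp2 and Cd63 were lowest with 3-NPA.

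Of the 10 cathepsins, 7 were tested, and 1 was called higher with Mn, 1 higher and 1 lower with MPP+, and 5 higher with 3-NPA. Those were 14.3%, 28.6% and 71.4% of the 7, against 7.66%, 13.9% and 38.3% of all genes. The call with Mn was Ctsw, on a probe dim in control. Ctsb, a cysteine endopeptidase, had signals of 43140 and 50379 in control, 48516 and 44819 with Mn, 59909 and 60436 with MPP+, and 62086 and 63612 with 3-NPA. The Mn arrays lay within the control range and the other 4 above it. Ctsb rose by 0.43 ± 0.11 with 3-NPA (limma adjusted p = 0.023), and its value with MPP+, 0.37 ± 0.11, did not pass (0.0727).

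Ctsd, the main aspartic protease of lysosomes, had signals of 26372 and 27728 in control, 30834 and 26500 with Mn, 25170 and 24122 with MPP+, and 34745 and 33984 with 3-NPA. Its MPP+ arrays were the lowest and its 3-NPA arrays the highest, with a rise of 0.35 ± 0.10 with 3-NPA (limma adjusted p = 0.0429). Ctsl1, the cysteine endopeptidase cathepsin L, had signals of 31512 and 30264 in control, 33171 and 37549 with Mn, 41301 and 43441 with MPP+, and 43772 and 50062 with 3-NPA. Every treated array exceeded both control arrays, and the rise passed with MPP+ (0.46 ± 0.11, adjusted p = 0.0471) and with 3-NPA (0.60 ± 0.11, 0.00874). The calls of Ctsl1 with MPP+ and of Ctsd with 3-NPA held in 8 of 19 and 8 of 18 alternatives. Ctsa, a carboxypeptidase that protects beta-galactosidase and neuraminidase, rose with 3-NPA by 0.44 ± 0.09 (0.0122). Ctsz, an exopeptidase, was not called in any comparison with control.

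Some cathepsins are best known from specialised cells. Ctsw, known from cytotoxic T cells and natural killer cells, had signals of 13.6 and 12.1 in control, 182 and 159 with Mn, 11.98 and 11.54 with MPP+, and 64.5 and 74.0 with 3-NPA. It was not well above background on any control or MPP+ array and was above it on all 4 others. Its mean signal with Mn was at least 3.62-fold that of control (limma adjusted p = 0.000579), and with 3-NPA at least 1.47-fold (0.000152). These bounds take, on each dim array, the higher of the probe's own signal and the lowest signal of any probe well above background. The measured group means were 12.8 in control, 170.4 with Mn, 11.8 with MPP+ and 69.1 with 3-NPA. The p-values belong to the fitted differences, which include the dim control values, and not to the bounds, and the probe was tested through the Mn and 3-NPA arrays alone. Both calls held in the 18 and 17 alternatives that gave a value, although with normexp background correction the fitted log2 value with Mn was 1.60, against 3.73. The probe is shown because the result rests on it alone.
Ctsw probe (rn4 chr1:208109108-208109241, - strand, 60 bases in a span longer than the probe): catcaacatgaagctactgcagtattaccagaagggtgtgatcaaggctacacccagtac

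Markers of T and natural killer cells were read beside Ctsw. Of 10 such genes, Cd3e, Cd8a, Gzma, Gzmb, Prf1, Klrd1 and Klrb1a were above background on 0 arrays. The summed signal of the list ran from 281 to 317 in control, 203 to 218 with Mn, 169 to 192 with MPP+ and 246 to 276 with 3-NPA. That sum includes the genes not above background. Their spots carry a surrogate value that was higher on the control arrays, so a lower sum with a toxin does not show a fall of these markers. Cd3d, the one gene of the list above background on 8 of 8 arrays, had signals of 98.0 and 92.3 in control, 112 and 130.3 with Mn, 99.3 and 103 with MPP+, and 171 and 156 with 3-NPA, and rose with 3-NPA by 0.78 ± 0.11 (limma adjusted p = 0.00333). The other tested gene, Nkg7, was above background on 7 of 8 arrays, with 1 of the 2 control arrays among them, and was not called. Its mean signal was 71.8 in control, 49.7 with Mn, 38.4 with MPP+ and 52.6 with 3-NPA. Cd3g was above background on 1 array and was not tested. The part of these markers in the result for Ctsw was not tested.

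Ctsk, the collagen-degrading cathepsin of osteoclasts, had signals of 70.7 and 65.1 in control, 51.1 and 33.97 with Mn, 40.3 and 35.7 with MPP+, and 99.1 and 105 with 3-NPA. Mn and MPP+ arrays lay below control and 3-NPA arrays above it. It fell with MPP+ by 0.84 with an SE of 0.20 (limma adjusted p = 0.0422), and the values of -0.70 ± 0.20 with Mn (0.0896) and 0.59 ± 0.20 with 3-NPA (0.0589) did not pass. The probe was above background on 1 of the 2 control arrays, and the call with MPP+ held in 9 of 18 alternatives. Ctss, a protease of antigen-presenting cells, was above background on 1 array, of 3-NPA, and its signals of 11.3 and 13.9 in control, 14.1 and 23.5 with Mn, 4.46 and 7.26 with MPP+, and 23.1 and 30.5 with 3-NPA were not tested. Ctsc, which activates serine proteases of granulocytes, and Ctsh, an aminopeptidase, were above background on 0 of the 8 arrays.

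Of the 13 other hydrolases, all of them tested, 3 were called higher with Mn, 5 with MPP+ and 9 with 3-NPA, and 0 were called lower by limma in any of the 3. The called shares were 23.1%, 38.5% and 69.2%, against 7.66%, 13.9% and 38.3% of all genes. The median log2 fold change of the 13 with 3-NPA was 0.50, and all 13 values were above 0. Asah1, Gaa and Naglu, with Gpnmb, were the members called in all 3 comparisons. The promoters of Gaa and Naglu, and of Tpp1, the next largest riser with MPP+, are shown as those of the hydrolases with a promoter in the RefSeq table that rose most with MPP+, with the E-box CACGTG of Gaa at -67 and the letters CATGTG on either strand, at -92 in Naglu and at -38 and -26 in Tpp1, in capitals.
Gaa promoter (GRCr8 chr10:105028105-105028404, + strand): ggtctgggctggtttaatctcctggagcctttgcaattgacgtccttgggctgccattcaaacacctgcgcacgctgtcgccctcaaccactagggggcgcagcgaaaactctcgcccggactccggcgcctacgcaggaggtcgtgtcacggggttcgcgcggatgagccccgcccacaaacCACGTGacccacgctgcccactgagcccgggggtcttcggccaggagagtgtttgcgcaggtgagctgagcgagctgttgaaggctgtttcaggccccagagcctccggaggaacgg
Naglu promoter (GRCr8 chr10:86501614-86501913, + strand): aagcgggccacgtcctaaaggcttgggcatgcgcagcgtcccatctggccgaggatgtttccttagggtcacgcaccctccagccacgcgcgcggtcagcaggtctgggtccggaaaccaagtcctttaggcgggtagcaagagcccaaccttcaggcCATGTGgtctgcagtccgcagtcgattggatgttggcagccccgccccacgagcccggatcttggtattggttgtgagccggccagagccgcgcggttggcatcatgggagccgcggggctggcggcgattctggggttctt
Tpp1 promoter (GRCr8 chr1:169515890-169516189, - strand): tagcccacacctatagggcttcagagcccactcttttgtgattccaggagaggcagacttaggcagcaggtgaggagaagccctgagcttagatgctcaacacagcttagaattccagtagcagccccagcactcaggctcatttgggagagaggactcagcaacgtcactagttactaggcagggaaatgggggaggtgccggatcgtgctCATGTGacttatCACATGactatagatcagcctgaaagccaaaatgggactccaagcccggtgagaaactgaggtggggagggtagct

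Asah1, the acid ceramidase, had signals of 488 and 500.3 in control, 877 and 785 with Mn, 709 and 800.5 with MPP+, and 1031 and 1176 with 3-NPA. Every treated array exceeded both control arrays, with 3-NPA the highest, and the rises were 0.75 ± 0.12 (limma adjusted p = 0.019), 0.61 ± 0.12 (0.0243) and 1.16 ± 0.12 (0.00112). Gaa, the alpha-glucosidase that breaks down glycogen, had signals of 5041 and 4545 in control, 6878 and 8131 with Mn, 10056 and 9194 with MPP+, and 10638 and 9769 with 3-NPA. MPP+ and 3-NPA overlapped above Mn, which lay above control, with rises of 0.64 ± 0.12 with Mn (0.0351), 1.01 ± 0.12 with MPP+ (0.0063) and 1.09 ± 0.12 with 3-NPA (0.0016).

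Naglu, which removes N-acetylglucosamine from heparan sulfate, followed the same order. Its signals were 1709 and 1648 in control, 2378 and 2805 with Mn, 3065 and 3329 with MPP+, and 3220.4 and 3278 with 3-NPA, and the rises were 0.62 ± 0.11 (limma adjusted p = 0.0275), 0.93 ± 0.11 (0.00588) and 0.95 ± 0.11 (0.00169). Tpp1, a serine protease that removes tripeptides, had signals of 1592 and 1378 in control, 1628 and 1795 with Mn, 2266 and 2266 with MPP+, and 3347 and 3133 with 3-NPA. It stepped up from MPP+ (0.61 ± 0.11, 0.0198) to 3-NPA (1.13 ± 0.11, 0.000973), and its value with Mn, 0.21 ± 0.11, did not pass (0.294). The 3 calls of Asah1, Gaa and Naglu with Mn were lost in 4, 12 and 10 of 19 alternatives, among them the fit without control replicate 1, while their calls and that of Tpp1 with 3-NPA held in all 18.

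Lipa, the lipase that splits cholesteryl esters and triglycerides, had signals of 2570.7 and 2577 in control, 2558 and 2589 with Mn, 2729 and 2711 with MPP+, and 4806 and 4744 with 3-NPA. Only the 3-NPA arrays stood far from the rest. It rose by 0.89 ± 0.08 with 3-NPA (limma adjusted p = 0.000707), with values of 0.00 ± 0.08 with Mn and 0.08 ± 0.08 with MPP+. Man2b1, the alpha-mannosidase of glycoprotein breakdown, rose by 0.35 ± 0.08 with MPP+ (0.0454) and by 0.52 ± 0.08 with 3-NPA (0.00554). Glb1 (beta-galactosidase), Smpd1 (acid sphingomyelinase) and Ppt1 (the thioesterase that removes palmitate from proteins) rose with 3-NPA by 0.46, 0.37 and 0.37. Neu1 (neuraminidase), Gusb (beta-glucuronidase), Hexa (an enzyme of ganglioside breakdown) and Gla (alpha-galactosidase A) were not called in any comparison with control, and Gla was dim on both control arrays.

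All 9 proton pump subunits were tested, and 0 were called with Mn by limma (1 with MPP+, 5 with 3-NPA, all higher). The called shares of 0% with Mn and 11.1% with MPP+ lay below the 7.66% and 13.9% of all genes. With 3-NPA the share was 55.6%, against 38.3%. The log2 values lay above 0 for 9 of 9 subunits with MPP+ and with 3-NPA, with medians of 0.29 and 0.48, against 0.02 and 0.05 over all genes. The 14 further pump genes given below did not share this. Among the 9 subunits, Atp6v1c1 rose most with 3-NPA (0.91 ± 0.13, limma adjusted p = 0.0039), a call kept in all 18 alternatives. It couples the catalytic to the membrane sector. It was followed by Atp6v1e1 and Atp6v1d (peripheral and central stalk), Atp6v0a1 (a membrane subunit) and Atp6v1b2 (a subunit of the catalytic head), between 0.48 and 0.58. Atp6v1d also rose with MPP+ (0.46 ± 0.10, 0.0329). The 10 spots of the Atp6v1e1 probe spread by up to 1.62 on the log2 scale within 1 array.

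Atp6v0d1, a subunit of the membrane sector, had signals of 846 and 750.3 in control, 619 and 1038 with Mn, 857 and 1119 with MPP+, and 863 and 912 with 3-NPA. Its Mn arrays lay below and above both control and both 3-NPA arrays, and no comparison with control passed, with an SE of 0.26. Atp6v0c, Atp6v1a and Atp6v1h were not called either. For Atp6v1a, the ATP-binding catalytic subunit, the 2 probes kept gave different values, and both are shown for that reason. The bright probe (mean signal 5309), used here, had log2 values of -0.08, 0.26 and 0.13 with Mn, MPP+ and 3-NPA. The dim one was above background on 0 of 2 control arrays and on all 6 others, with signals of 15.7 and 16.5 in control, 39.6 and 33.2 with Mn, 46.2 and 52.9 with MPP+, and 38.8 and 33.5 with 3-NPA. It was at least 1.05-fold higher with MPP+ than in control, and its dim control signal leaves no fold with Mn or 3-NPA.
Atp6v1a bright probe (rn4 chr11:58180098-58180157, + strand): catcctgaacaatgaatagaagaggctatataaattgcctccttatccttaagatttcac
Atp6v1a dim probe (rn4 chr11:58174681-58174740, + strand): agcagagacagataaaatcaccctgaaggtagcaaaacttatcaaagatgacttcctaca

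The toxins were also set against each other. Between Mn and MPP+, 2 of the 39 genes were called (5.13%), where 9.1% of all genes were (4.88% higher with Mn, 4.22% lower), and both were higher with Mn. These were Ctsw, at least 14.2-fold higher with Mn (limma adjusted p = 0.000337), and Cd68, higher by 1.29 ± 0.18 on the log2 scale (0.013). Gpnmb differed between Mn and MPP+ by 0.00 ± 0.10 (0.989). The doses differed (150 and 250 µM), so this compares the cultures as treated and not the agents at a matched dose.

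Against 3-NPA, of unstated dose and exposure, Mn had 3 genes called higher and 15 lower (46.2%), where 28.6% of all genes were called (11.7% higher, 16.9% lower). MPP+ against 3-NPA had 1 higher and 13 lower (35.9%), where 31% of all genes were called (12.9% higher, 18.1% lower). Gpnmb was higher with 3-NPA than with either by 1.71 ± 0.10 (limma adjusted p = 0.000327 against Mn and 0.000287 against MPP+). Ctsw was higher with Mn than with 3-NPA by 1.30 ± 0.12 (0.0012), and with 3-NPA at least 5.77-fold higher than with MPP+ (0.000179). The p against MPP+ again belongs to the fitted difference on dim MPP+ values and not to the bound. Cd68 was lower with MPP+ than with 3-NPA by 1.94 ± 0.18 (log2 value -1.94, 0.00106), and Ctsk by 1.43 ± 0.20 (-1.43, 0.00414). Lipa and Mcoln1 were lower in both comparisons, with log2 values of -0.89 and -0.73 for Mn and -0.81 and -0.62 for MPP+. Npc2 and Cd63 were higher with Mn than with 3-NPA (0.45 and 0.38), and Lamp2 was higher with MPP+ (0.31).

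The direction of these comparisons with 3-NPA depended on the scaling for the genes of small change. With the median of each array, Mn against 3-NPA had 4 genes called higher and 6 lower, and MPP+ against 3-NPA 5 higher and 6 lower. The median over all genes moved with it, from -0.06 to 0.16 and from -0.03 to 0.23. The Mn against 3-NPA count of 18 was 6 without either 3-NPA array, 8 without either MPP+ array and 11 without either Mn array. The MPP+ against 3-NPA count of 14 was 6 and 5 without MPP+ replicates 1 and 2, and 7 and 5 without 3-NPA replicates 1 and 2. The Mn against MPP+ count of 2 was 1 without Mn replicate 1 or either MPP+ array.

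**Figure D3:**
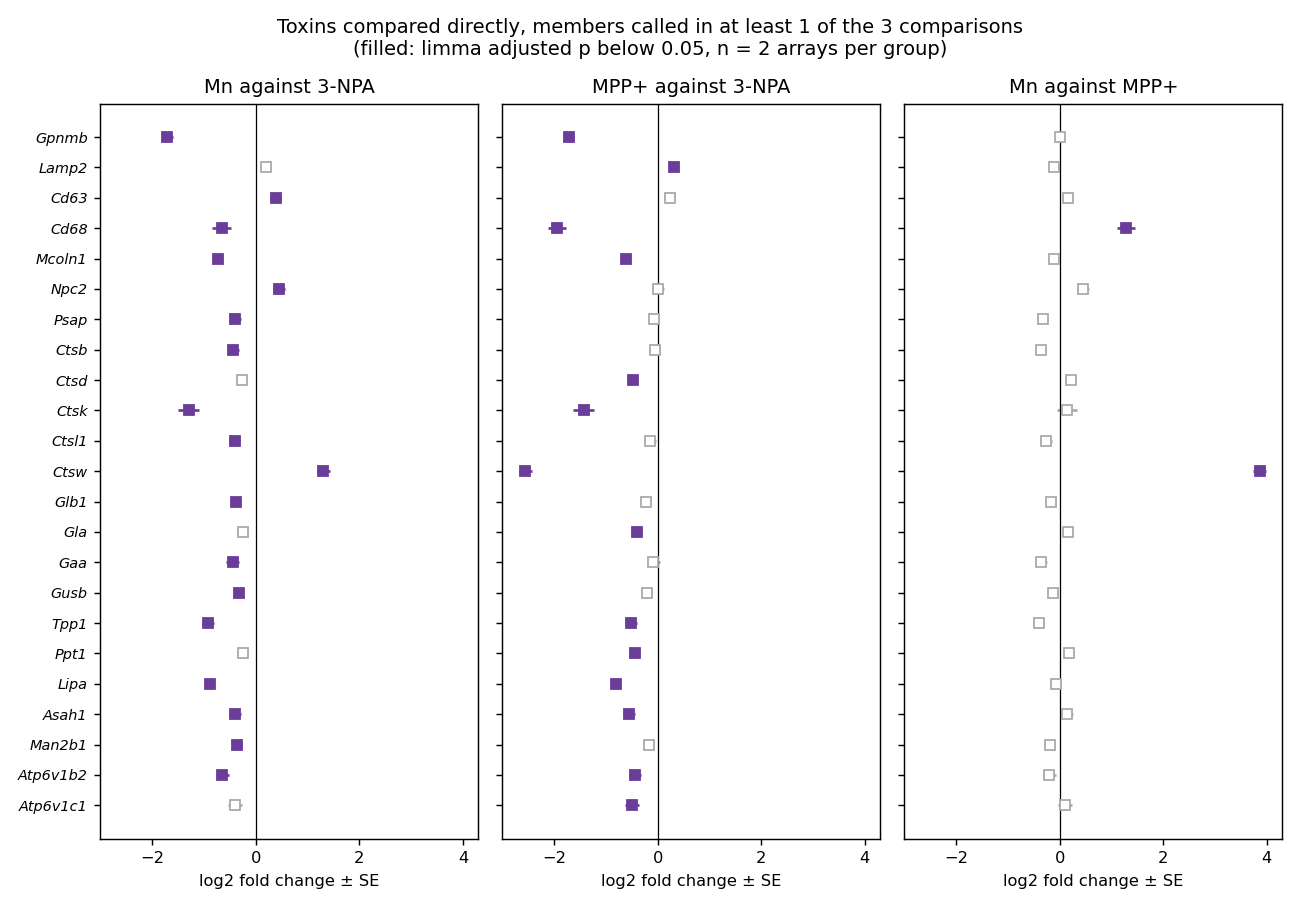
Log2 fold changes with standard errors between pairs of toxin groups for the 23 lysosome genes called in at least 1 of the 3 comparisons, with filled points where the limma test passed. Gpnmb was lower with Mn and with MPP+ than with 3-NPA to the same extent, and Ctsw and Cd68 were the genes called between Mn and MPP+. The points of Ctsw against MPP+ are fitted values on a probe dim with MPP+.

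A further 127 genes of the lysosome that are not among the 42 were read in the same fit, and 106 were tested. With Mn, 3 were called higher and 0 lower (2.83%), with MPP+ 13 higher and 5 lower (17%), and with 3-NPA 36 higher and 9 lower (42.5%). The medians were 0.01, 0.12 and 0.18. These total shares lay below that of all genes with Mn (7.66%) and close to it with MPP+ (13.9%) and 3-NPA (38.3%). By direction, the calls leaned more to higher than those of all genes. With MPP+, 13 of the 106 were higher and 5 lower, where 7.47% and 6.47% of all genes were. With 3-NPA, 36 were higher and 9 lower, where 22.3% and 16% were.

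Among the 25 further hydrolases tested, 2 were called higher with Mn, 5 higher and 1 lower with MPP+, and 11 higher and 1 lower with 3-NPA. Those were 8%, 24% and 48% of the list, against 7.66%, 13.9% and 38.3% of all genes. Manba, the beta-mannosidase, was at least 4.31-fold higher with 3-NPA (limma adjusted p = 0.000431), on a probe dim in control. Acp5, the tartrate-resistant acid phosphatase known from osteoclasts, rose by 0.93 ± 0.12 with Mn (0.0121) and 1.43 ± 0.12 with 3-NPA (0.000692), with 0.25 ± 0.12 for MPP+ (0.226). Its signals were 506 and 603 in control, 1036 and 1075 with Mn, 627 and 689.7 with MPP+, and 1407 and 1581 with 3-NPA, so that MPP+ stayed just above control. Arsb, which removes sulfate from dermatan sulfate, rose with Mn and MPP+ by 0.56 and 0.58, and its value with 3-NPA was 0.16 ± 0.11 (0.297). Scpep1, Siae and Man2b2 rose with MPP+ and with 3-NPA, between 0.41 and 0.95.

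Of 24 further membrane and transport genes, 0 were called with Mn by limma (10 had an unadjusted p below 0.05), 2 were higher and 1 lower with MPP+, and 11 were higher and 4 lower with 3-NPA. Called shares were 0%, 12.5% and 62.5%, against 7.66%, 13.9% and 38.3% of all genes. Slc17a5, the sialic acid exporter sialin, rose by 0.64 ± 0.10 with MPP+ (adjusted p = 0.0117) and 1.55 ± 0.10 with 3-NPA (0.000259). Tmem192 rose with both by 0.60 and 0.73. Npc1, the membrane partner of Npc2 in cholesterol export, rose with 3-NPA by 1.01 ± 0.10. Slc11a2, the divalent metal transporter DMT1 that carries iron and manganese, fell with MPP+ by 0.33 (0.0481) and with 3-NPA by 0.98 (0.000595), and its value with Mn was -0.26 ± 0.08 (0.108). Laptm4a, Sppl2a and Cd9 fell with 3-NPA by 0.86, 0.78 and 0.76.

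Of 19 genes of sorting to the lysosome, 0 were called with Mn by limma (3 had an unadjusted p below 0.05), 2 were higher with MPP+ and 3 were higher and 1 lower with 3-NPA. These shares of 0%, 10.5% and 21.1% lay below the 7.66%, 13.9% and 38.3% of all genes in each comparison. Igf2r, the receptor that brings mannose-6-phosphate tagged hydrolases to endosomes, rose with 3-NPA by 0.93 ± 0.14 (adjusted p = 0.00389). Nagpa, which uncovers that tag, rose with MPP+ (0.60) and 3-NPA (0.52). Ap1m1 rose with MPP+ (0.49), and of the adaptor AP-3, Ap3d1 rose with 3-NPA (0.40) while Ap3m1 fell by 0.68.

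Of the 14 further proton pump genes tested, 0 were called with Mn by limma (1 had an unadjusted p below 0.05). With MPP+, 0 were called higher and 3 lower, and with 3-NPA 2 higher and 2 lower. The shares called were 0%, 21.4% and 28.6% with Mn, MPP+ and 3-NPA, against 7.66%, 13.9% and 38.3% of all genes. Of the 14 values, 7 lay above 0 with MPP+ and 6 with 3-NPA, with medians of 0.00 and -0.12. Tcirg1, the a3 subunit of osteoclasts and lysosomes, had signals of 4896 and 5168 in control, 4463 and 4751 with Mn, 3212 and 3299 with MPP+, and 4717 and 4703 with 3-NPA. Every treated array lay below both control arrays, those of MPP+ furthest. Tcirg1 was called with MPP+ alone, where it fell by 0.63 (limma adjusted p = 0.00922). Atp6v0a4 fell with MPP+ by 0.61, and Atp6v1e2, above background on 1 of 2 control arrays (98.9 and 57.4), fell by 1.56 with MPP+ and 1.03 with 3-NPA. Atp6ap2, the prorenin receptor and an accessory subunit, and Atp6v1c2 rose with 3-NPA by 0.76 and 0.64, while Atp6v0e1 fell by 0.47.

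Of 19 genes that control lysosomal transcription or mTORC1, 1 was called higher with Mn, 3 with MPP+ and 5 with 3-NPA, where 1 was lower. The list was called at 5.26%, 15.8% and 31.6%, near or below the 7.66%, 13.9% and 38.3% of all genes. Rragd, a Rag GTPase through which mTORC1 acts on TFEB, had signals of 390 and 594 in control, 580 and 594 with Mn, 1054 and 949.9 with MPP+, and 1876 and 2313 with 3-NPA. Control and Mn overlapped, and Rragd rose by 1.06 ± 0.21 with MPP+ (limma adjusted p = 0.028) and 2.12 ± 0.21 with 3-NPA (0.00112). Flcn, the folliculin that regulates RagC and RagD, rose by 0.42 ± 0.10 (0.0427) and 1.33 ± 0.10 (0.000469), and Rragc rose with 3-NPA by 0.77. Ppp3cb, a catalytic subunit of calcineurin, the phosphatase that activates TFEB after calcium release through TRPML1, rose with MPP+ (0.57) and 3-NPA (0.78). Tsc1 rose with Mn (0.71) and 3-NPA (0.82) on a probe dim in control, with bounds of at least 1.101-fold and 1.19-fold, and Rheb, the activator of mTORC1, fell with 3-NPA by 0.42. The relatives of Tfeb were not called: Tfe3 had 0.15, 0.02 and 0.08 with Mn, MPP+ and 3-NPA, and Mitf -0.01, -0.25 and -0.47, each ± 0.13 and 0.16.

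Of 5 cathepsin inhibitors tested, 4 were called higher with 3-NPA, 1 with MPP+ and 0 with Mn by limma, where 5 had an unadjusted p below 0.05. In the same order, that was 80%, 20% and 0%, against 38.3%, 13.9% and 7.66% of all genes. Cst6, cystatin E/M, rose by 0.84 ± 0.12 with MPP+ (adjusted p = 0.0116) and 1.32 ± 0.12 with 3-NPA (0.000888). Serpinb1a, an inhibitor of serine proteases and of cathepsin G, rose with 3-NPA by 2.40 ± 0.16 (0.000323), with signals of 72.2 and 62.9 in control and 341 and 369 with 3-NPA. Cstb and Cst3, the cystatins B and C, rose with 3-NPA by 0.69 and 0.41.

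**Figure D4:**
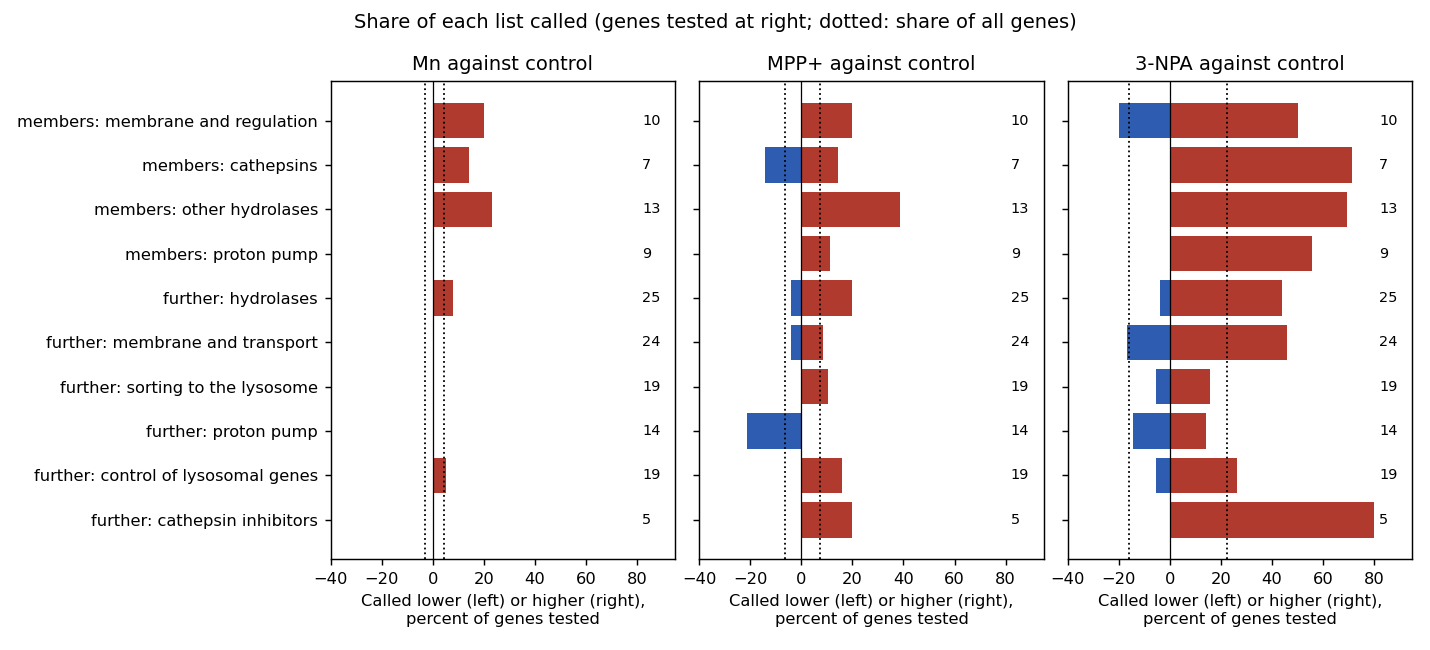
Share of the tested genes of each list called higher (to the right) or lower (to the left) against control with Mn, MPP+ and 3-NPA, in percent, with the number tested beside each bar and dotted lines at the shares of all 16908 genes. With 3-NPA, the members of each role lay above the dotted line for higher calls: membrane and regulation (5 of 10), cathepsins (5 of 7), other hydrolases (9 of 13) and proton pump (5 of 9). So did cathepsin inhibitors (4 of 5), further hydrolases (11 of 25), further membrane and transport genes (11 of 24) and control genes (5 of 19). Genes of sorting and the further proton pump genes lay near or below it.

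Several of these genes are also known from other cell types, whose markers were read on the same arrays. Of 9 melanocyte markers, Pmel, a melanosome protein, was highest with 3-NPA, as Gpnmb was, but lay far lower with Mn than with MPP+, with signals of 230 and 211 in control, 269.6 and 280.3 with Mn, 672 and 629 with MPP+, and 1121 and 1160.4 with 3-NPA. The summed signal of that list, most of it Pmel, was 321 to 326 in control, 337 to 356 with Mn, 691 to 746 with MPP+ and 1268 to 1349 with 3-NPA. Tyr, Tyrp1, Dct, Gpr143 and Slc45a2 were above background on 0 arrays. This sum and those below include genes not above background, whose surrogate values were higher on the control arrays. Of the melanocyte list, 3 genes were tested and 3 were called higher with 3-NPA (100%), where 38.3% of all genes were called. They were Pmel (2.37 ± 0.09), Mlana (at least 2.38-fold) and Sox10 (17.4 in control against 28.7 with 3-NPA, with no fold left at its bound). Mlana and Sox10 were dim on both control arrays and were tested through treated arrays alone. Of 7 osteoclast markers, the sum ran from 637 to 739 in control, 1188 to 1222 with Mn, 743 to 795 with MPP+ and 1568 to 1723 with 3-NPA, most of it Acp5, while Calcr, Dcstamp and Tnfrsf11a were above background on 0 arrays. Mmp9 of that list was above background with Mn and 3-NPA alone, with signals of 9.18 and 11.8 in control, 42.5 and 32.2 with Mn, 5.15 and 5.91 with MPP+, and 44.1 and 37.7 with 3-NPA. Acp5 and Mmp9, 2 of the 3 tested (66.7%), were both called higher with Mn and with 3-NPA, where 7.66% and 38.3% of all genes were called. The dim control signal of Mmp9 leaves no fold at its bound with either. Of 15 markers of microglia and macrophages, the sum ran from 966 to 1061 in control, 1170 to 1191 with Mn, 930 to 937 with MPP+ and 1136 to 1207 with 3-NPA. Ptprc, Trem2, Cd163, Emr1, C1qa and C1qc were above background on 0 arrays, and Lyz2 (at least 1.91-fold) and Tyrobp (at least 1.60-fold) rose with 3-NPA on probes dim in control, as did Itgam (0.52 ± 0.15) and Cx3cr1 (0.76 ± 0.22) on brighter ones. Cd14 and Aif1, also above background on 8 of 8 arrays, were not called with 3-NPA. Their mean signals were 385 and 125 in control and 299 and 125 with 3-NPA. Of the 9 markers tested, 4 were called higher with 3-NPA and 0 lower (44.4%), where 38.3% of all genes were called. The part of these markers in the results for Gpnmb, Cd68, Ctsk and Acp5 was not tested.

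Promoter windows of 300 bases were found in the RefSeq table for 33 of the 42 members (Psap, Ctsb, Ctsw, Hexa, Ppt1, Asah1, Atp6v1b2, Atp6v1c1 and Atp6v1h were not matched). Motifs were searched on both strands. The E-box CACGTG with GT before and AC after it, a consensus form of the element bound by TFEB, was in 0 of the 33 and in 0.277% of 27457 promoters. The E-box CACGTG alone was in 7 of the 33 (21.2%), namely Lamp1, Cd63, Mcoln1, Ctsd, Glb1, Gaa and Atp6v0d1, and in 6.65% of all promoters and 9.22% of those of 9951 tested genes. Lamp1 had 5 copies, and Mcoln1 and Ctsd 2 each. The longer form TCACGTG on either strand, which contains the E-box, was in 6 (18.2%, against 3.43% and 5.37%). The letters CATGTG on either strand were in 12 (36.4%, against 13.5% and 8.12%), including Gpnmb, Cd68, Naglu, Tpp1, Ctsk and Atp6v1a.

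The motifs were counted by call, with no test. Of the 17 members with a promoter that were called higher with 3-NPA, 4 held CACGTG and 4 held CATGTG. Of the 11 that were tested and not called, 2 and 6 did, and Cd63, called lower, held both. A match is a description of the letters in this window and not evidence of binding.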

How the data were processed

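Total RNA, labelled with Cy3, was hybridised to single-colour arrays, per the labels' protocols. Spot intensities were background-subtracted and detrended within the array by Agilent Feature Extraction 11.5.1.1, with rn4 positions and no scaling between arrays, per the file headers. The authors' deposited value table holds log2 values set near the 75th percentile of each array, by tools not given in the sources used here, and served as an alternative. From the deposited intensities, outlier spots were left out (39 probes lost, 30328 used), log2 values of a probe's spots were averaged and the 75th percentile of each array was subtracted. A probe was above background where more than 0.5 of its spots were so marked, and 19460 probes above it on both arrays of a group were kept. The brightest kept probe stood for a gene. Spots not above background carry a surrogate value that was higher on the control arrays, which limits dim genes. Group means were fitted over the 8 arrays with limma 3.58.1 in R 4.3.3 (4 residual and 2.06 prior degrees of freedom), with Benjamini-Hochberg adjustment per comparison over 16908 genes, and the script was tested on simulated data. No permutation test was used, as 2 against 2 can reach no exact 2-sided p under 0.333. The number of arrays limits the precision. The members and lists were chosen with earlier results of these data known. Signals on all arrays are given for 13 fixed members and for those among the 6 largest called changes of a comparison or called in all 3, and up to 4 called genes per direction, comparison and further list are named. Cd68 and Mcoln1 promoters, Mcoln1 and Rragd array values and others given beyond that rule were chosen after their values were seen. Some genes counted in the further lists are not reported here by name.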

Additional observations from a re-analysis of the deposited data

How the results depend on the processing

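Every member called against control kept its sign under each alternative run (6 of 6 with Mn, 10 of 10 with MPP+, 26 of 26 with 3-NPA), but few calls with Mn and MPP+ held in all: 1 of 6 with Mn (Ctsw), 1 of 10 with MPP+ (Gpnmb) and 11 of 26 with 3-NPA (Gpnmb, Cd68, Mcoln1, Ctsw, Gaa, Naglu, Tpp1, Lipa, Asah1, Man2b1 and Atp6v1c1). The number of members called with Mn, 6 as reported, was 2 with array weights, 3 with the 6 arrays of control, Mn and MPP+, 1 with only the 4 arrays compared, and 3 to 4 without 1 array. With MPP+ (10), it was 5 with the 6 arrays, 4 with the 4 arrays and 2 to 10 without 1 array, and with normexp 11 higher and 3 lower. With 3-NPA (26), it was 16 with the median of each array and 12 to 29 without 1 array. Mn against MPP+ (2) gave 4 with normexp, 4 with probes above background on all 8 arrays, 1 with the 4 arrays and 1 to 3 without 1 array. Mn against 3-NPA (18) gave 10 with the median of each array, 7 with no filter on dim probes, 8 with the 4 arrays and 6 to 16 without 1 array, and MPP+ against 3-NPA (14) gave 5 to 15 without 1 array. Fewer arrays leave fewer degrees of freedom; the cause of the other moves was not tested.

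Over all genes, no filter on dim probes raised the counts to 7047 with Mn (1025 higher), 8834 with MPP+ and 11924 with 3-NPA, where surrogate values of the control arrays enter the test. Array weights gave 439 with Mn, the 6 arrays 653 with Mn and 1285 with MPP+, and the 4 arrays 6 and 977. The share of calls that were higher, 58.8% with Mn, 53.6% with MPP+ and 58.2% with 3-NPA, was 69.9%, 71.5% and 42.6% with the median of each array, and 73% and 64.5% with Mn and MPP+ after quantile normalization. It was 50% and 39.8% with Mn and MPP+ after normexp, and 14.5%, 16.9% and 29.9% with no filter, so the direction of the MPP+ calls over all genes turned with the setting.

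The replicate numbers of the titles were not taken to pair the arrays: deviations of same-numbered arrays correlated at 0.5 between Mn and 3-NPA but between -0.024 and 0.0984 over the other 5 pairs of groups, and no label says that a number marks a shared batch. With the replicate number as a block, 4, 7 and 24 members were called with Mn, MPP+ and 3-NPA, and 3, 14 and 12 for Mn against MPP+, Mn against 3-NPA and MPP+ against 3-NPA.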
